A study of Mus musculus with 22 samples.

Results

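The genes described are the constitutive subunits, assembly factors, activators and inhibitor of the mouse proteasome, chosen by symbol alone: Psma, Psmb, Psmc, Psmd, Psme, Psmf or Psmg followed by a number, without the inducible catalytic subunits Psmb8, Psmb9 and Psmb10. The rule found 45 genes among the 46882 genes of the table. Their RNA was measured in 16 libraries of 6 groups from a study of subcutaneous MC38 tumors, MC38 being a mouse colon adenocarcinoma cell line. Skin (2 libraries, wild-type C57BL/6N mice, day 23) and cultured MC38 cells (2 libraries, day 0, C57BL/6N background) served as references. Tumors came from wild-type C57BL/6N hosts at day 23 and day 46 (3 libraries each) and from hosts labelled RAG1-/- (B6.129S7-Rag1tm1Mom/J, which make no mature T and B cells) at day 13 and day 23 (3 libraries each). All mice were 8 to 12 weeks old, which for the hosts was the age at injection, so later days also mean older hosts. Every tumor arose from the same injected line. Each excised tumor was divided, and a piece with its host cells was used for RNA, so a tumor library is a mixture of MC38 and host cells.

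The proteasome is the protease that degrades ubiquitin-tagged proteins. Its core is a barrel of stacked rings: outer alpha rings made by Psma1 to Psma7, and inner beta rings made by Psmb1 to Psmb7, of which Psmb6, Psmb7 and Psmb5 carry the caspase-like, trypsin-like and chymotrypsin-like sites. A regulatory cap feeds it: a base with 6 ATPases that unfold the substrate (Psmc1 to Psmc6) and the scaffolds and receptor Psmd1, Psmd2 and Psmd4, and a lid that holds the deubiquitinase Psmd14. Other activators can sit on the barrel instead, and interferon-gamma is known to raise the inducible catalytic subunits together with the activator pair Psme1 and Psme2, which changes the peptides made for MHC class I.

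Libraries held 5589151 to 26134241 reads on genes, and 3 reads, the lowest count read here as above 0, stood at 1.33 to 6.38 normalized counts depending on the library. These limits cover counting error only. Nothing in the labels says whether the MC38 libraries came from separate cultures, so their spread may be technical. Marker genes of colon epithelium were close to 0 in MC38 cells (5 genes, summed 4.28 to 6.84 normalized counts), as they were in the tumors (0 to 28.9), so the defining markers of the labelled tissue were all but absent. Summed T cell markers (6 genes) were at 30.3 to 197 in the wild-type tumors and at 1.31 to 22.9 in the tumors labelled RAG1-/-. Rag1 itself had 1 to 12 reads in each of the 6 tumors labelled RAG1-/-, and 1 read in 1 of the 6 wild-type tumors and none in the others. That order goes against the labels, but reads of a 3′ library say nothing about a deletion that leaves the end of the transcript in place, so these tumors are called by their label.

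Together the 45 genes took 0.603% to 0.607% of the reads in skin, 1.02% to 1.06% in MC38 cells and 0.866% to 1.05% in the 12 tumors. The tumors labelled RAG1-/- of day 13 held the upper end of that range, with 0.985% to 1.05%, and the other 3 tumor groups lay between 0.866% and 0.938%. Psma8 and Psmb11, core subunits known from testis and thymus, were at 0 in skin and MC38 cells. Psma8 reached 36.4 normalized counts in 1 tumor labelled RAG1-/- of day 13 and 0 to 13.7 in the other tumors, and Psmb11 stayed at 0 to 2.13. Psma8 passed the filter in the comparisons among tumors and with MC38 cells and was not called there, except by DESeq2 in the tumors labelled RAG1-/- against MC38 cells, where it was called higher. The other 43 genes had reads in all 16 libraries.

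**Figure D1:**
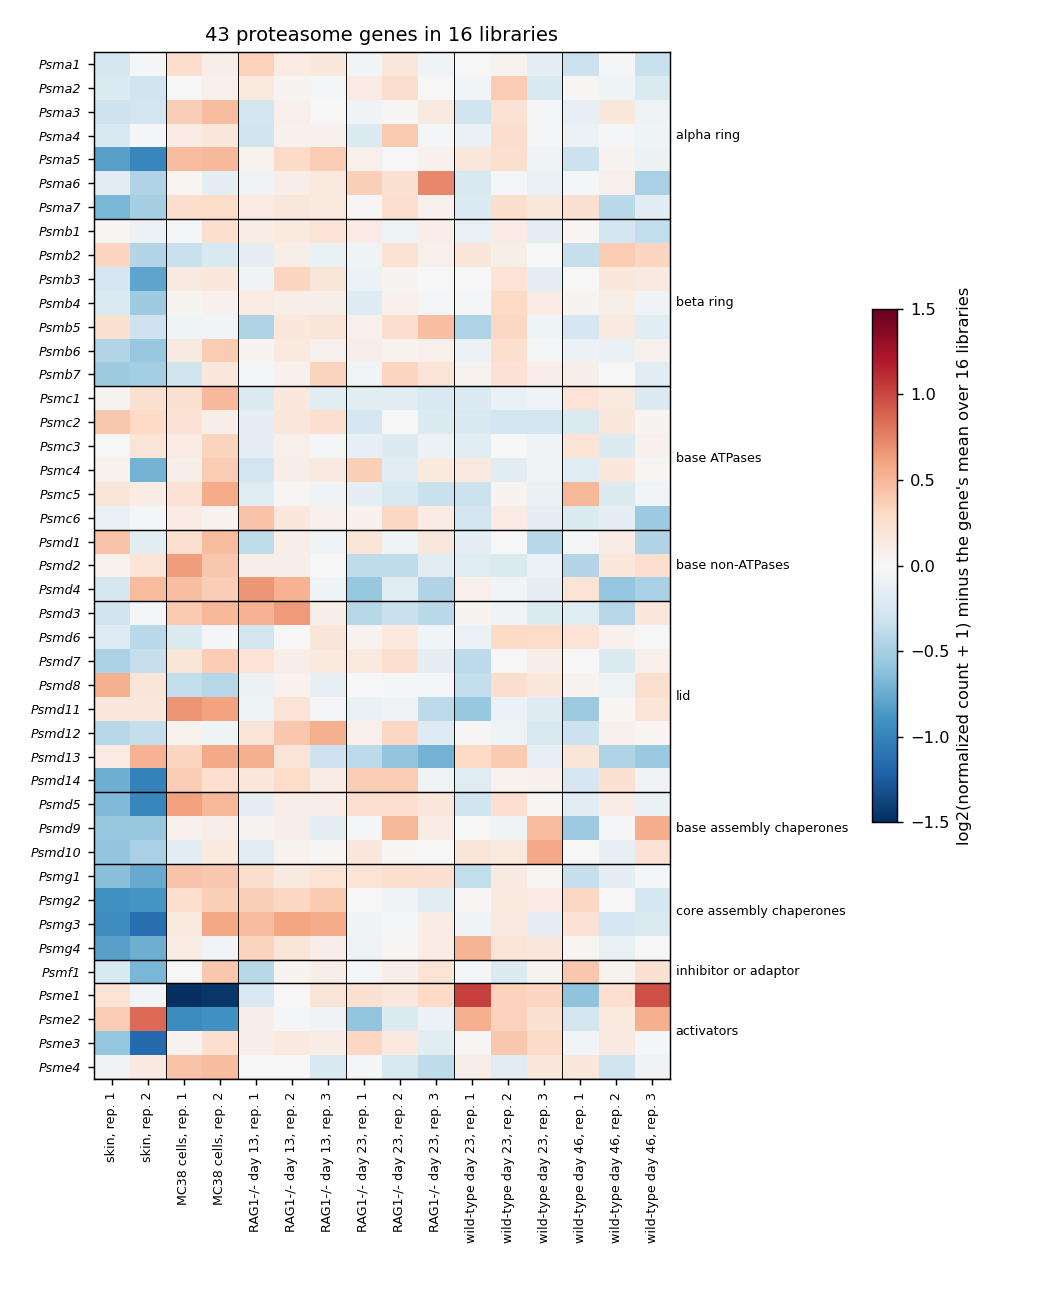
Heat map of 43 proteasome genes (rows, by role) in 16 libraries (columns), as log2(normalized count + 1) minus the gene's mean over the 16 libraries. Psme1 and Psme2 are low in both MC38 libraries, and the core assembly chaperones Psmg1 to Psmg4 are low in both skin libraries.

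MC38 cells were first compared with skin, which asks how the cell line differs from the tissue around the graft. In MC38 cells 19 of 43 tested proteasome genes were higher and 3 were lower (limma, adjusted p under 0.05), where 20.8% of all 16780 tested genes were higher and 41.2% lower. The median log2 difference was 0.41 over the proteasome genes and -0.40 over all genes tested. The roles were uneven in the main fit. All core and base assembly chaperones were called higher, the ring and lid subunits rose in part, no ATPase was called, and the activators split. With the libraries rescaled to equal totals 34 genes were higher and 2 lower, and with equal upper quartiles 36 and 2. The median of all genes then moved from -0.40 to 0.03 or 0.11. The proteasome median stood above it by 0.80 in the main fit and by 0.79 and 0.78 after rescaling. Rescaling multiplies all genes of a library by the same factor, so this gap could hardly change and is no check. Without the first or the second MC38 library 10 or 7 genes were higher, and without the first skin library 11.

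The 4 core assembly chaperones, which help build the alpha ring and guide its pairing with beta subunits, were all higher, with a median log2 difference of 1.15. Psmg2 was at 551 and 561 normalized counts in skin and at 1230 and 1327 in MC38 cells, a log2 difference of 1.20 ± 0.13 (SE, adjusted p = 0.00142). Psmg1 was at 330 and 301 against 686 and 674, a difference of 1.11 ± 0.15 (adjusted p = 0.00271). The MC38 libraries lay above both skin libraries in each case. Psmg3 and Psmg4 rose by 1.40 and 0.81. The Psmg4 call was lost whichever library was left out, and the Psmg3 call without either skin library. The 3 base assembly chaperones, which hold ATPase subunits until the base is complete, also rose. Psmd5 went from 575 and 461 in skin to 1392 and 1283 in MC38 cells (log2 difference 1.37 ± 0.17, adjusted p = 0.00193). Psmd9 rose by 0.65 and Psmd10 by 0.53. The Psmd10 call was lost with no filter and whichever library was left out. The Psmd9 call was lost with all libraries in 1 fit and without either MC38 library.

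Of the 7 alpha ring genes 3 rose. Psma5 was at 1617 and 1442 normalized counts in skin and at 3922 and 3989 in MC38 cells, a log2 difference of 1.37 ± 0.12 (adjusted p = 0.000777), and Psma7 and Psma3 rose by 0.86 and 0.73. All 7 had both MC38 libraries above both skin libraries, as had 30 of the 43 genes, against 30.6% of all genes tested; 4 of the 43 had them below, against 51.4%. Of the 7 beta ring genes 2 rose, Psmb6 from 2305 and 2117 to 3451 and 4078 (0.76 ± 0.14, adjusted p = 0.00744, lost without either skin library or the second MC38 library) and Psmb3 by 0.66. The other catalytic subunits were not called: Psmb7 differed by 0.45 ± 0.19 (adjusted p = 0.0952) and Psmb5 by -0.01 ± 0.22 (adjusted p = 0.964), with a sign that turned under rescaling. Psmb7 was called higher in 5 of 12 alternatives, among them all libraries in 1 fit. The others gave 0.86 with equal totals, 0.93 with equal upper quartiles, 0.60 by edgeR and 0.56 by DESeq2. Psmb4, not called in the main fit, was called higher under both rescalings, by edgeR and DESeq2 and with a pseudocount of 5. All libraries in 1 fit and the replicate block also called it higher, but the fit with no filter did not.

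In the cap, none of the 6 ATPases passed the test (median 0.19), nor did Psmd1, Psmd2 or Psmd4. After rescaling to equal totals 5 of the 6 ATPases were called higher. Psmd2 was called higher under both rescalings and by edgeR and DESeq2. In the lid 5 of 8 genes rose, led by the deubiquitinase Psmd14. It was at 1822 and 1503 normalized counts in skin and 3909 and 3616 in MC38 cells (1.18 ± 0.15, adjusted p = 0.00203). Psmd7, Psmd3, Psmd11 and Psmd12 followed with 0.69 to 0.38. Of the alternatives, only both rescalings, edgeR and DESeq2 kept the Psmd12 call. The lid gene Psmd8 was the exception, at 3625 and 2850 in skin and 1943 and 1865 in MC38 cells. It fell by 0.76 on the log2 scale (SE 0.16, adjusted p = 0.0116), a call lost under both rescalings, where the difference was -0.34 and -0.28, and without either MC38 library. Psmf1, the inhibitor and adaptor PI31, was not called (0.66 ± 0.25, adjusted p = 0.0691). Both rescalings, edgeR, DESeq2, all libraries in 1 fit and the replicate block called it higher.

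The activators went in opposite directions. Psme1 (PA28 alpha) was at 1377 and 1164 normalized counts in skin and at 370 and 435 in MC38 cells, and its partner Psme2 (PA28 beta) at 2930 and 4055 against 1158 and 1194. Both MC38 libraries lay well below both skin libraries. Psme1 fell by 1.66 on the log2 scale (SE 0.17, adjusted p = 0.00117) and Psme2 by 1.55 (SE 0.19, adjusted p = 0.00193). Of 12 alternatives, the Psme1 call was lost in 1, without the first skin library (adjusted p = 0.0503). Psme3 (PA28 gamma, the nuclear form) was at 888 and 593 in skin and 1384 and 1583 in MC38 cells, a rise of 1.03 ± 0.23 (adjusted p = 0.0151), and Psme4 (PA200) rose by 0.41 ± 0.13 (adjusted p = 0.0425). The Psme3 call was lost in 3 of 12 alternatives (without either MC38 library or the second skin library), and the Psme4 call in 6 of 12 (no filter, all libraries in 1 fit, replicate block, and without either MC38 library or the first skin library). Among the inducible subunits Psmb9 fell by 4.72 (SE 0.42, adjusted p = 0.000746), from 735 and 1513 normalized counts to 47.1 and 32.3. Psmb8, at 632 and 1412 in skin and 436 and 408 in MC38 cells, was not called (-1.16, adjusted p = 0.0536), nor was Psmb10, at 512 and 891 against 720 and 751 (0.12, adjusted p = 0.735).

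**Figure D2:**
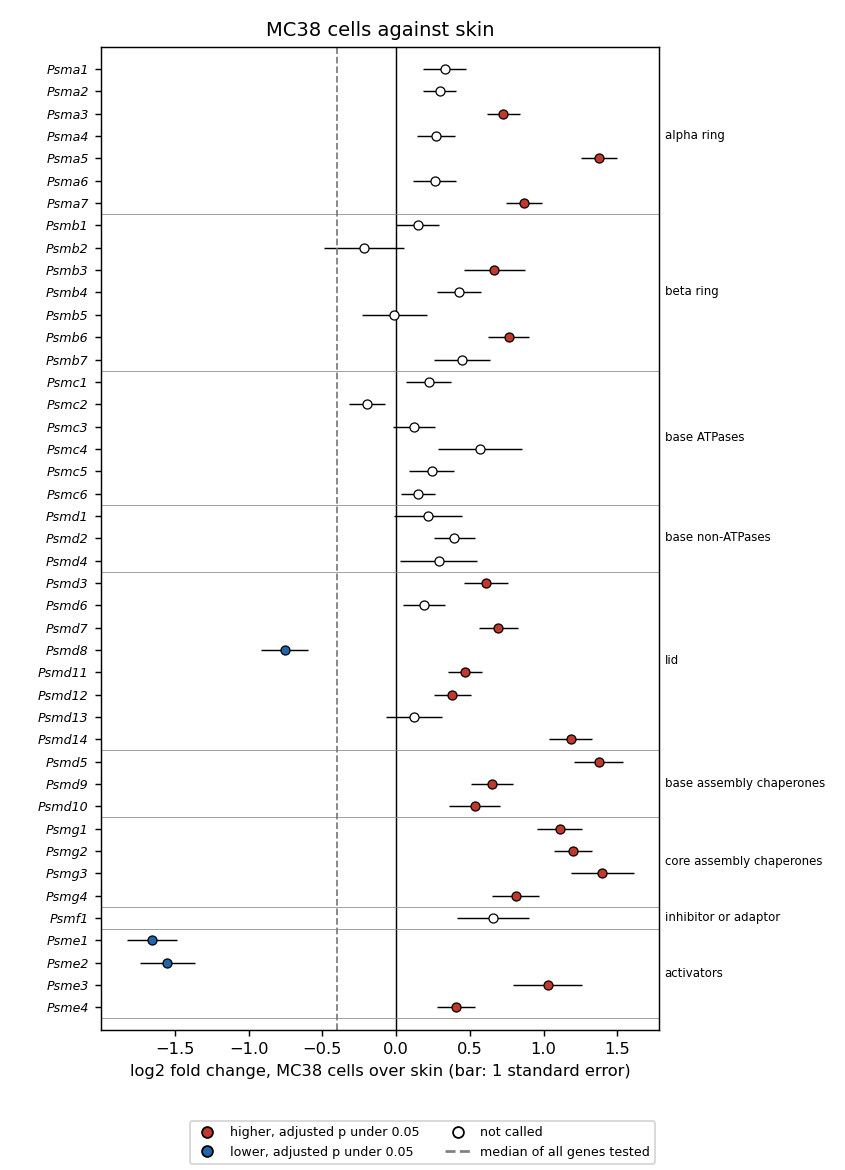
Log2 fold change of each proteasome gene, MC38 cells over skin (2 libraries each, points with 1 standard error), by role, with the median of all genes tested as a dashed line at -0.40. The points of the assembly chaperones lie to the right of 0, and Psme1, Psme2 and Psmd8 are the 3 genes called lower.

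Skin is a whole tissue, and its libraries carried summed epidermal markers (6 genes) of 304624 to 307687 normalized counts against 311 to 320 in MC38 cells, fibroblast markers of 352446 to 409524 against 4955 to 5649, and macrophage markers of 4515 to 5412 against 36.8 to 48.9. Summed proliferation genes (15 genes) were at 12148 to 13428 in skin and 42708 to 42908 in MC38 cells, with 14 of 15 called higher, and 10 of 14 interferon-gamma response genes were called lower. In bulk libraries fewer cells of a type and less RNA per cell cannot be told apart, and the part of these differences in the proteasome values was not tested.

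The tumors were then set against the injected cells. Psme1 and Psme2 were higher in both hosts, and most other genes lay at or below their MC38 level. In the wild-type tumors 3 of 44 tested genes were higher and 11 lower, where 18.3% of 14708 tested genes were higher and 9.61% lower. In the tumors labelled RAG1-/- 2 were higher and 8 lower, where 15.8% and 7.55% of all genes were. The median log2 difference was -0.25 in wild-type tumors and -0.12 in those labelled RAG1-/-, against 0.05 and 0.06 over all genes. Both comparisons share the 2 MC38 libraries, so their values stand side by side and are not independent. Equal upper quartiles gave 2 higher and 21 lower in the wild-type tumors and moved the share of higher calls over all genes from 65.5% to 50.2%; in the tumors labelled RAG1-/- they gave 2 and 11, and moved that share from 67.6% to 55.3%.

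Psme1 was at 370 and 435 normalized counts in MC38 cells, at 1013, 1203 and 1365 in the tumors labelled RAG1-/- of day 13, and at 1396, 1341 and 1475 in those of day 23. In wild-type tumors it was at 2433, 1523 and 1499 at day 23 and at 783, 1421 and 2337 at day 46. Every tumor lay above both MC38 libraries, with the first day 46 tumor lowest. The log2 difference from MC38 cells was 1.96 ± 0.28 in wild-type tumors (adjusted p = 3.34e-05) and 1.68 ± 0.28 in those labelled RAG1-/- (adjusted p = 0.000194).

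Psme2 was at 1158 and 1194 in MC38 cells, at 2380, 2189 and 2154 in the tumors labelled RAG1-/- of day 13, and at 1487, 1938 and 2108 in those of day 23. In wild-type tumors it was at 3248, 2852 and 2635 at day 23 and at 1847, 2486 and 3255 at day 46. Again no tumor reached down to the MC38 level. In wild-type tumors Psme1 and Psme2 were the 2 genes with all 6 tumors above both MC38 libraries, and 14 had them below, where 21.7% and 15.7% of all genes did. The difference was 1.18 ± 0.18 (adjusted p = 6.57e-05) in wild-type tumors and 0.78 ± 0.18 (adjusted p = 0.00376) in those labelled RAG1-/-. The last 500 bases of Psme2 are 99% identical to those of Psme2b, which held 11.0% of the counts of the pair and also rose, by 1.46 in wild-type tumors and by 1.11 in those labelled RAG1-/-. With the reads of both genes summed the difference of Psme2 was 1.21 and 0.82.

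The other activators did not share this rise. Psme3 was at 1384 and 1583 in MC38 cells, and the tumors overlapped them, with differences of -0.02 ± 0.15 (adjusted p = 0.945) in wild-type tumors and -0.04 ± 0.15 (adjusted p = 0.882) in those labelled RAG1-/-. Psme4, known for acetylated histones in germ cells, was at 2245 and 2301 in MC38 cells and between 1281 and 1867 in the 12 tumors. It fell by 0.46 on the log2 scale (SE 0.15, adjusted p = 0.0278) in wild-type tumors and by 0.59 (SE 0.15, adjusted p = 0.00733) in those labelled RAG1-/-. The call was lost without either MC38 library in both hosts, and in wild-type tumors also with no filter and without the second tumor of day 23 or of day 46.

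**Figure D3:**
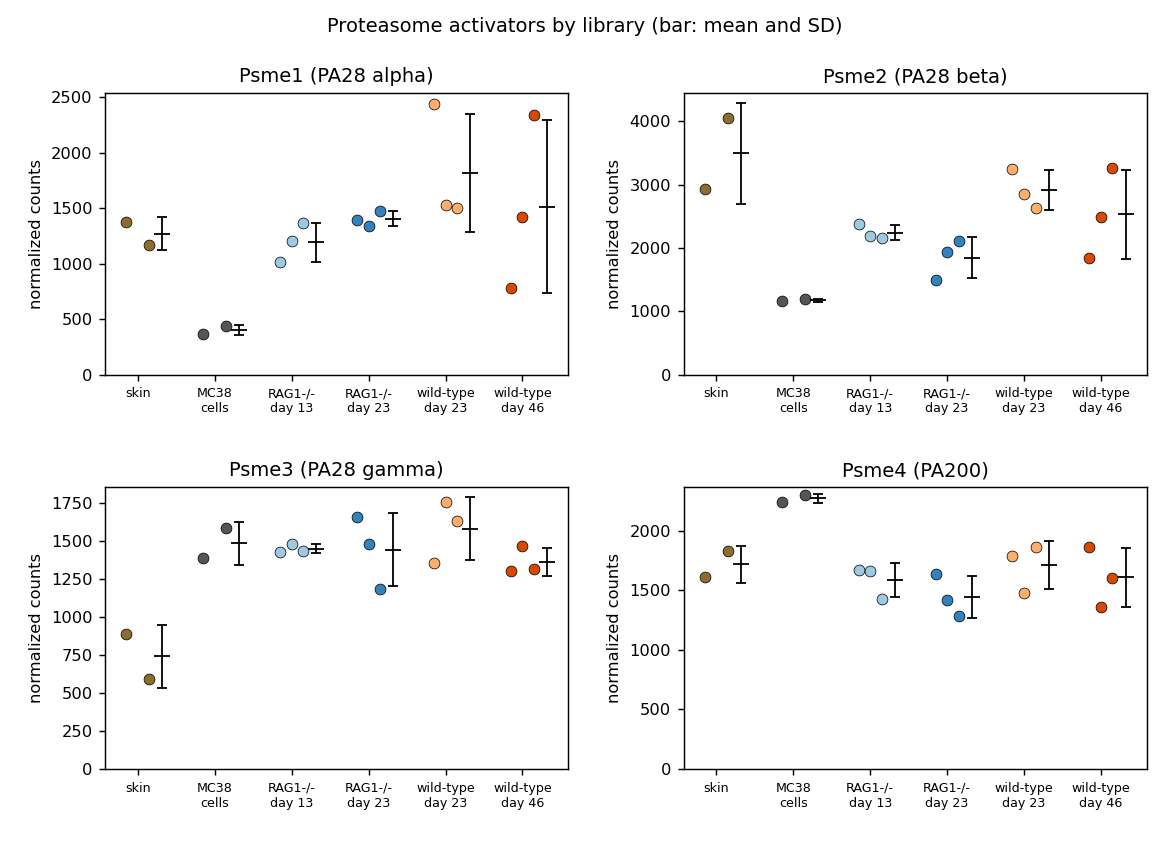
Normalized counts of the 4 activator genes in each library (points) with the mean and SD of each group (bars), in skin, MC38 cells and the 4 tumor groups. For Psme1 and Psme2 the MC38 libraries are the lowest of all 16, for Psme3 the skin libraries are the lowest, and for Psme4 the MC38 libraries are the highest.

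The stretches around the RefSeq transcription starts of the activator pair are shown because both genes moved together here and lie close to each other on chromosome 14, on opposite strands (Psme1 at chr14:55578123-55581529 on the plus strand, Psme2 at chr14:55587441-55591113 on the minus strand, GRCm38). Each runs from 120 bases before to 30 bases after the start, 5′ to 3′, with Psme3 (chromosome 11) for contrast. Capitals mark any match to the motifs searched on both strands: the CCAAT box (CCAAT), the CNC-bZIP element bound by the proteasome regulator Nfe2l1 (TGACNNNGC), the interferon-stimulated response element core (GAAA, any 2 bases, GAAA) and the STAT element (TTCNNNGAA).
Psme1, chr14:55578374-55578523, plus strand: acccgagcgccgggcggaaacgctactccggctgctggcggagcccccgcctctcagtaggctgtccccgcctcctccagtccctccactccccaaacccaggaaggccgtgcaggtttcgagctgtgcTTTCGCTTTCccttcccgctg
Psme2, chr14:55591072-55591221, minus strand: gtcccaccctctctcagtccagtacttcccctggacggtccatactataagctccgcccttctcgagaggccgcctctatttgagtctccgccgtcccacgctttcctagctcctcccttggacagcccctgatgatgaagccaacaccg
Psme3, chr11:101316093-101316242, plus strand: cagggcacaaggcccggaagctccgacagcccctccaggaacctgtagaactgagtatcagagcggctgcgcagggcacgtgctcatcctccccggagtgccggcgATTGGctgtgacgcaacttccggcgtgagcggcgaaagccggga

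In Psme1 the interferon core lay on transcribed bases 10 to 19. The windows of Psme2 at both of its listed starts held none of the 4 motifs, which says only that these letters are not there. Over 250 bases before to 50 bases after each start, RefSeq promoters matched 37 of the 45 genes with 40 promoters. The interferon core was in 5 of these 40 (12.5%), against 3.44% of all 32851 promoters. The 5 sites are shown with 10 bases on each side, with the core in capitals, since their genes behaved differently in the tumors.
Psme1, chr14:55578493-55578522, plus strand: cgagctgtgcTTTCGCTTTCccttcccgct
Psmg4, chr13:34162969-34162998, plus strand: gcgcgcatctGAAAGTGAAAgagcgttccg
Psmb3, chr11:97703261-97703290, plus strand: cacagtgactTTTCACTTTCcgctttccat
Psmd4, chr3:95042675-95042704, minus strand: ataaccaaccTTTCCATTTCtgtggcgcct
Psmd9, chr5:123228021-123228050, plus strand: gggacagaatGAAAAAGAAAggaatgaaca

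Of these 5 genes, Psme1 alone was called higher in the tumors than in MC38 cells. In wild-type tumors the log2 difference was 0.10 for Psmg4, -0.08 for Psmb3 and -0.01 for Psmd9, none called, and Psmd4 was called lower. The other motifs were about as frequent in these promoters as elsewhere: CCAAT in 13 of 40 (32.5%, against 37.4% of all), the CNC-bZIP element in 6 of 40 (against 12.4%) and the STAT element in 2 of 40 (against 8.30%). A match is a description of the letters and not a site in use.

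The inducible subunits moved in the direction of Psme1 and Psme2. Psmb9, which takes the place of Psmb6, was at 47.1 and 32.3 normalized counts in MC38 cells, at 475 to 796 in the tumors labelled RAG1-/- and at 1012 to 2233 in wild-type tumors. It rose by 3.82 ± 0.26 in the former (adjusted p = 1.99e-09) and by 5.31 ± 0.26 in the latter (adjusted p = 1.84e-11). Psmb8 and Psmb10 rose by 2.10 and 1.44 in the tumors labelled RAG1-/- and by 2.66 and 1.54 in wild-type tumors. Of the 14 interferon-gamma response genes 13 and 14 were higher, with summed levels of 14142 to 14190 in MC38 cells, 35770 to 77260 in the tumors labelled RAG1-/- and 74200 to 97352 in wild-type tumors. The summed macrophage markers (6 genes) moved with them, from 36.8 to 48.9 in MC38 cells to 6457 to 10904 and 8702 to 15310. The part of host cells in the rise of Psme1 and Psme2 was not tested.

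The lower genes came from several roles. In wild-type tumors all 3 base scaffolds and receptors were lower (Psmd1, Psmd2 and Psmd4), with the ATPase Psmc1, the lid genes Psmd3 and Psmd11, the alpha subunits Psma3 and Psma5, the chaperones Psmd5 and Psmg1, and Psme4. In the tumors labelled RAG1-/- the lower genes were Psmd2, Psmc1, Psmc5, Psmd11, Psmd13, Psma3, Psmd5 and Psme4. The Psmc5 call was lost with no filter, with the replicate block and without either MC38 library. It was also lost without the first tumor of day 13 or the third of day 23. None of the 7 beta ring genes was called in either host, with median differences of -0.03 and -0.01. In wild-type tumors Psmb6 was called lower with equal upper quartiles (-0.40, adjusted p = 0.029), and Psmb2 higher without the first tumor of day 46. Psmb6 differed by -0.26 ± 0.13 and -0.18 ± 0.13, Psmb7 by 0.12 ± 0.15 and 0.22 ± 0.15, and Psmb5 by -0.03 ± 0.21 and 0.17 ± 0.21, in wild-type tumors and in those labelled RAG1-/- respectively (adjusted p = 0.149 to 0.943).

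Psmd11, a lid subunit that steadies the contact between cap and core, was at 2462 and 2368 normalized counts in MC38 cells and between 1050 and 1799 in the 12 tumors. All tumors lay below both MC38 libraries. It fell by 0.83 on the log2 scale in wild-type tumors (SE 0.18, adjusted p = 0.00227) and by 0.70 in those labelled RAG1-/- (SE 0.18, adjusted p = 0.00866). Psmd2, the large scaffold of the base, was at 2753 and 2359 in MC38 cells and between 1315 and 2110 in the tumors. It fell by 0.60 (SE 0.16, adjusted p = 0.00893) and by 0.64 (SE 0.16, adjusted p = 0.0066). The chaperone Psmd5 was at 1392 and 1283 in MC38 cells and between 742 and 1082 in the tumors, and fell by 0.58 (adjusted p = 0.00797) and by 0.43 (adjusted p = 0.0467).

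Psmd8, lower in MC38 cells than in skin, was at 1943 and 1865 in MC38 cells and between 1938 and 3019 in the wild-type tumors, of which 1 overlapped the MC38 range. It rose by 0.44 ± 0.15 (adjusted p = 0.0395), a call that held in 8 of 16 alternatives. The call was lost with equal upper quartiles (adjusted p = 0.175), with no filter on low values and with the replicate block. Psmd8 also lost it without either MC38 library or any of 3 tumors. In the tumors labelled RAG1-/- it lay between 2310 and 2591 and was not called (0.36 ± 0.15, adjusted p = 0.0982).

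The counts of lower genes rested on both MC38 libraries. Without the first or the second of them, 1 and 2 genes were lower in wild-type tumors and 1 and 1 in those labelled RAG1-/-. Leaving out 1 of 4 tumors labelled RAG1-/- (the first or the third of day 13, the second or the third of day 23) gave 5 lower in that host. Psme1 was called higher in all these fits in both hosts, and Psme2 in all but the one of the tumors labelled RAG1-/- without the first MC38 library (adjusted p = 0.057).

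**Figure D4:**
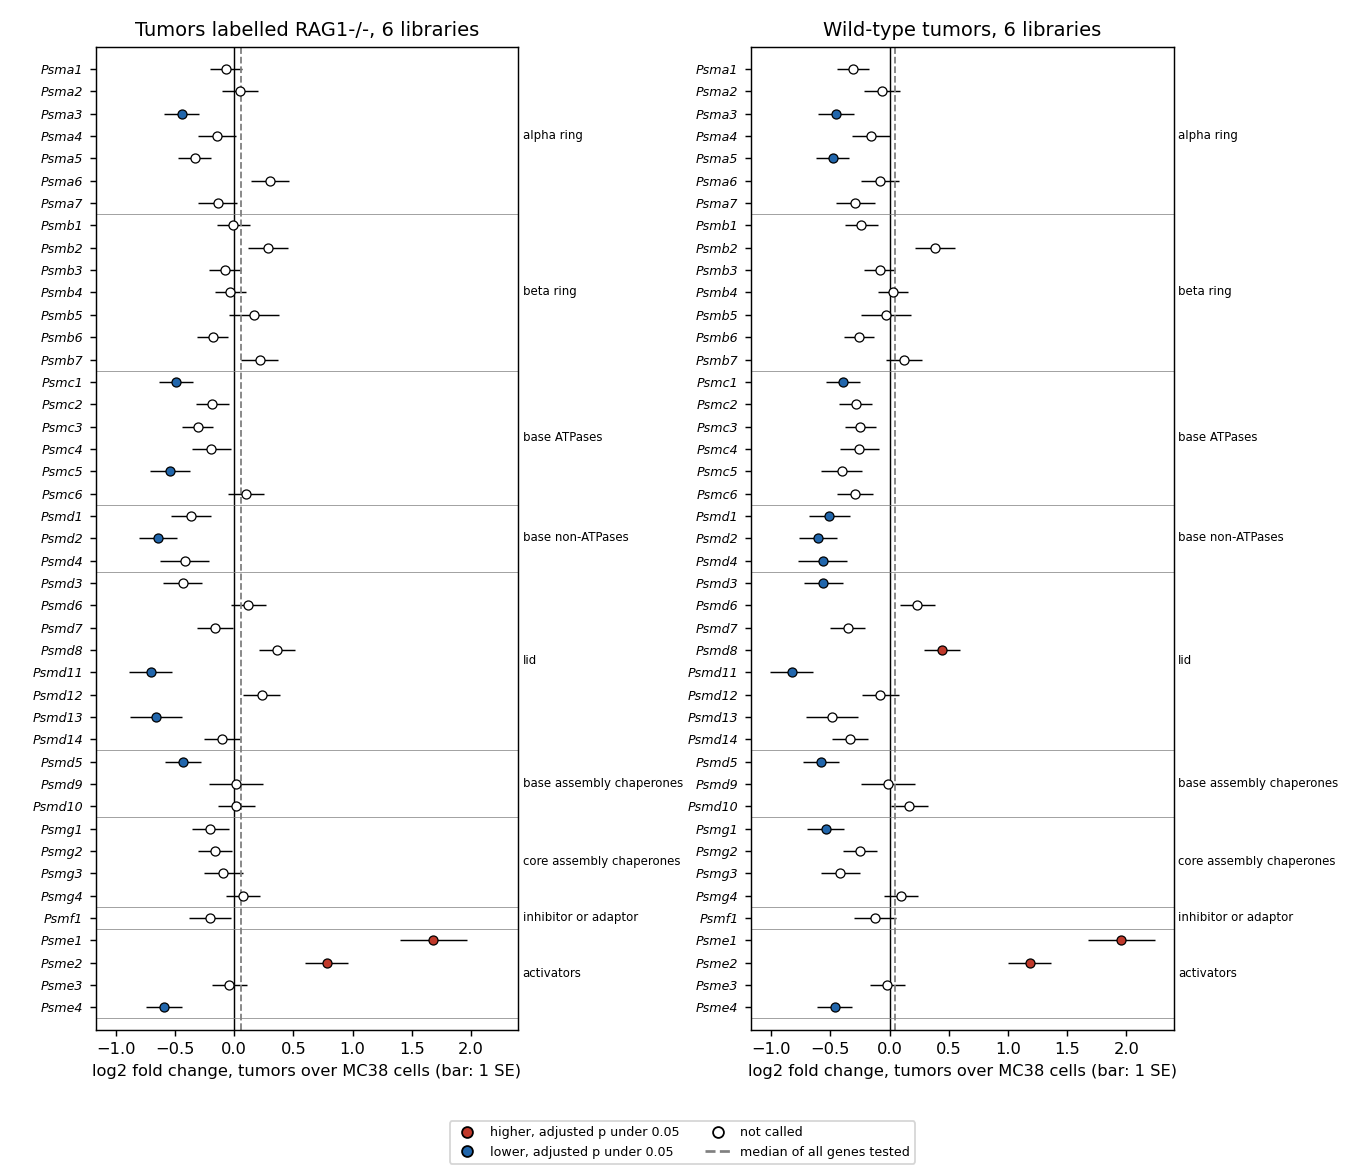
Log2 fold change of 43 proteasome genes (Psma8 is not drawn), tumors over MC38 cells (points with 1 standard error), for the 6 tumors labelled RAG1-/- (left) and the 6 wild-type tumors (right), by role, with the median of all genes tested as a dashed line. Psme1 and Psme2 are the rightmost points in both panels, and both panels use the same 2 MC38 libraries.

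Against skin, 17 of 43 tested genes were higher in wild-type tumors and 1 was lower, where 23.7% of 16158 tested genes were higher and 34.5% lower. The median was 0.28 over the proteasome genes and -0.17 over all genes. All 4 core assembly chaperones and all 3 base assembly chaperones were higher, with medians of 0.93 and 0.70. Psmg2 was at 551 and 561 normalized counts in skin and between 863 and 1284 in the tumors (log2 difference 0.95 ± 0.13, adjusted p = 1.48e-05), and Psmg3 and Psmg4 rose by 0.98 and 0.91. Psme3 rose by 1.01 ± 0.16 (adjusted p = 6.23e-05) and Psma5 by 0.89 ± 0.13 (adjusted p = 2.54e-05). The single lower gene was the ATPase Psmc2, at 3561 and 3303 in skin and 2216 to 3003 in the tumors, which fell by 0.48 (SE 0.13, adjusted p = 0.00496). That call was lost under both rescalings (-0.08 and -0.02), by edgeR and without the first skin library. It was also the 1 gene with all tumors below both skin libraries, and 18 had them above, where 35.0% and 22.8% of all genes did.

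Among the catalytic subunits Psmb6 and Psmb7 rose by 0.51 and 0.57 over skin (adjusted p = 0.00168 and 0.00315), while Psmb5 differed by -0.04 ± 0.22 (adjusted p = 0.885). Psme1 and Psme2 were not called, with 0.30 ± 0.29 (adjusted p = 0.385) and -0.37 ± 0.19 (adjusted p = 0.109), and neither was Psme4 (-0.06 ± 0.14, adjusted p = 0.748). Rescaling moved the median of all genes from -0.17 to 0.23 for equal totals and 0.30 for equal upper quartiles. It gave 28 and 31 higher genes and none lower, and turned the sign of Psmb5, Psme2 and Psme4. With equal upper quartiles Psme1 (0.76, adjusted p = 0.0228) and Psme4 (0.40, adjusted p = 0.0303) were called higher, and without the third tumor of day 46 Psme2 was called lower (adjusted p = 0.0253). Relative to all genes the proteasome median stood 0.44 above in the main fit and 0.45 above in both, a gap that such rescaling can hardly change. The skin markers given above apply here too.

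The comparison the hosts were chosen for, wild-type tumors against those labelled RAG1-/-, found no proteasome gene past the threshold. Over both days 0 of 44 were called in either direction (limma, with 8 at an unadjusted p under 0.05, of which 7 were lower; edgeR and DESeq2 also called 0), where 0.570% of 14746 tested genes were higher and 0.142% lower. At an unadjusted p under 0.05, 6.64% of all genes were higher and 4.77% lower. Strain and genotype differ together between the hosts at every day and cannot be told apart. Time differs as well here. The tumors labelled RAG1-/- were taken at day 13 and 23, and the wild-type tumors at day 23 and 46. At day 23, the day both hosts share, 0 were called again (3 at an unadjusted p under 0.05, and 0 by edgeR and DESeq2), where 0.231% of genes were higher and 0.0475% lower, and 11.2% had an unadjusted p under 0.05.

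The lowest p-values over both days belonged to Psmc6 (-0.39 ± 0.11, adjusted p = 0.173), Psma6 (-0.38 ± 0.12, adjusted p = 0.208), Psme2 (0.40 ± 0.13, adjusted p = 0.243) and Psmg1 (-0.34 ± 0.12, adjusted p = 0.25). Psmg1 was the only gene whose hosts did not overlap, at 394 to 560.1 normalized counts in wild-type tumors and 560.4 to 613 in those labelled RAG1-/-, where 0.332% of all genes were without overlap in that direction. The margin between the closest libraries was under 1 normalized count. Psme1, Psme3 and Psme4 differed by 0.28 ± 0.21, 0.02 ± 0.11 and 0.13 ± 0.11 (adjusted p = 0.656 to 0.963), and Psmb5, Psmb6 and Psmb7 by -0.19 ± 0.16, -0.08 ± 0.09 and -0.09 ± 0.10 (adjusted p = 0.686 to 0.811).

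At day 23, 7 genes had all 3 wild-type tumors above all 3 tumors labelled RAG1-/-, and 2 had them below, where 8.50% and 7.62% of all genes did. The 7 were Psme1, Psme2, Psmd3, Psmd4, Psmd13, Psmg2 and Psmg4, and the 2 were Psma6 and Psmg1. Psme2 differed by 0.67 ± 0.19 (adjusted p = 0.174), with wild-type tumors at 2635 to 3248 and the others at 1487 to 2108. Psmd13, a lid subunit, was at 1500.2, 1598 and 1115 in wild-type tumors and at 928, 804 and 745 in those labelled RAG1-/- (0.75 ± 0.23, adjusted p = 0.208). Psma6 went the other way, at 3562, 4129 and 3893 against 5345, 4915 and 6894 (-0.55 ± 0.17, adjusted p = 0.209). Psme1, Psme3 and Psme4 differed by 0.34 ± 0.29, 0.14 ± 0.15 and 0.24 ± 0.16, and Psmb5, Psmb6 and Psmb7 by -0.34 ± 0.22, -0.02 ± 0.13 and -0.04 ± 0.15, none called (adjusted p = 0.601 to 0.971).

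The balance of inducible and constitutive catalytic subunits was compared as a log2 ratio in each tumor, by a two-sided exact permutation test over 6 wild-type tumors and 6 labelled RAG1-/-, adjusted over the 3 ratios. For Psmb9 over Psmb6 the wild-type tumors lay between -1.54 and -0.55 and those labelled RAG1-/- between -2.78 and -2.04, without overlap. The difference was 1.57 (exact permutation p = 0.00216, the smallest this design allows, adjusted p = 0.00649). Psmb6 itself was at 2905 to 3739 in wild-type tumors and 3226 to 3472 in those labelled RAG1-/-, where it was not called, and Psmb9 was higher in wild-type tumors by 1.50 ± 0.18 (limma, adjusted p = 0.000583). At day 23 alone the difference was 1.62, where an exact permutation test of 3 against 3 tumors cannot pass the threshold.

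For the other pairs the hosts overlapped over both days. Psmb8 over Psmb5 was at 1.56 to 3.54 in wild-type tumors and 1.13 to 2.52 in those labelled RAG1-/-, a difference of 0.76 (exact permutation test, adjusted p = 0.11). At day 23 alone it was at 1.86 to 3.54 against 1.13 to 1.45, without overlap, a difference of 1.41. That design of 3 against 3 cannot pass the threshold. The same ratio also separated the days within the tumors labelled RAG1-/-, which were at 1.74 to 2.52 at day 13. Their day 13 mean was 2.05, near the 2.15 of the wild-type tumors of day 46. The part of this change with time in the day 23 gap was not tested. Psmb10 over Psmb7 differed by 0.20 (adjusted p = 0.498), a difference made by the third wild-type tumor of day 46, without which it was -0.0094. In MC38 cells all 3 ratios lay lowest of the 6 groups in mean, Psmb9 over Psmb6 at -6.17 and -6.94. T cell markers were higher in the wild-type tumors, as given above, and 11 of 14 interferon-gamma response genes had an unadjusted p under 0.05 in the same direction. Their part in the ratios was not tested.

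**Figure D5:**
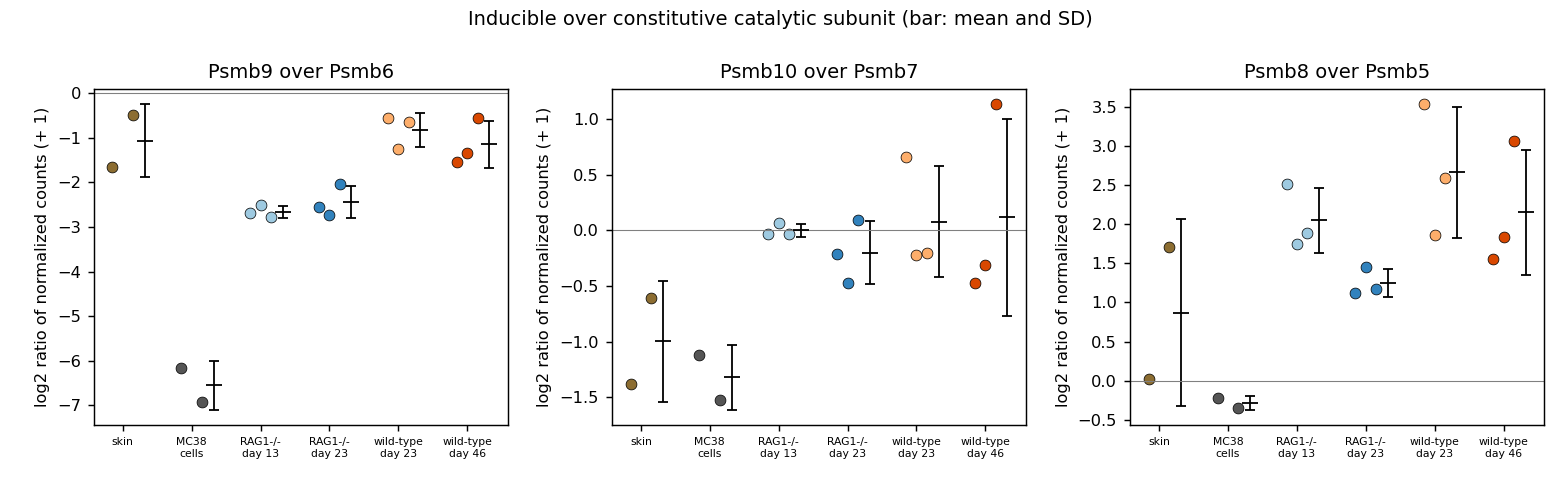
Log2 ratio of each inducible catalytic subunit to the constitutive subunit it replaces, in each library (points) with the mean and SD of each group (bars). For Psmb9 over Psmb6 all 6 wild-type tumors lie above all 6 tumors labelled RAG1-/-, and the MC38 libraries lie below -6.

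With time the tumors labelled RAG1-/- showed lower values of a few cap genes that did not pass the test in the main fit. From day 13 to day 23, 0 of 44 genes were called, as for all 14746 genes (0%). At an unadjusted p under 0.05 there were 6 lower and 1 higher, edgeR called 0, and DESeq2 called Psmd3 and Psmd4 lower. Over all genes 6.14% were lower and 5.54% higher at that unadjusted p, and DESeq2 called 0.787% lower and 0.61% higher. Psmd3, a lid scaffold, was at 1814, 1971 and 1353 normalized counts at day 13 and at 948, 1006 and 958 at day 23 (-0.80 ± 0.17, adjusted p = 0.167). Psmd4, the ubiquitin receptor, was at 2306, 2086 and 1385 and then at 979, 1277 and 1064 (-0.77 ± 0.22, adjusted p = 0.219). Psmd13 was at 1759, 1389 and 978 and then at 928, 804 and 745 (-0.70 ± 0.23, adjusted p = 0.271).

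In all 3 genes every day 23 tumor lay below every day 13 tumor, with the third tumor of day 13 closest. In total 8 genes were without overlap in this direction and 2 in the other, where 9.92% and 9.48% of all genes were. Besides these 3, the 8 held Psmd2, Psmb4, Psme2 and the chaperones Psmg2 and Psmg3. Psmg3 was at 697, 763 and 743 and then at 487, 496 and 545 (-0.53 ± 0.16, adjusted p = 0.254). The activators Psme1 to Psme4 differed by 0.24, -0.29, -0.02 and -0.14, and Psmb5, Psmb6 and Psmb7 by 0.30, -0.02 and 0.03 (adjusted p = 0.583 to 0.981). Summed skeletal muscle markers (4 genes) also separated the days, at 7214, 277 and 7013 normalized counts at day 13 and at 54.99, 36.2 and 22.1 at day 23, and the summed interferon-gamma response genes went the other way, from 35770 to 42159 at day 13 to 49412 to 77260 at day 23. Their part in these differences was not tested.

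From day 23 to day 46 in wild-type tumors no gene was called, and none had an unadjusted p under 0.05, against 8.55% of all genes (edgeR and DESeq2 also called 0). Psmc2 was the only gene without overlap that was higher, and Psmg4 the only one that was lower, where 7.02% and 5.44% of all genes were. The activators Psme1 to Psme4 differed by -0.36 ± 0.29, -0.24 ± 0.19, -0.21 ± 0.15 and -0.09 ± 0.16, and Psmb5, Psmb6 and Psmb7 by -0.02, -0.10 and -0.14 (adjusted p = 0.722 to 0.988). The sign of Psme1 rested on the first tumor of day 46, the one at 783 normalized counts, without which the difference was 0.04. That tumor also had the lowest summed inducible subunits of the wild-type hosts, 3815 normalized counts of a range up to 10013. The time effects of the hosts were compared directly by an interaction: 0 of 44 genes were called (3 at an unadjusted p under 0.05, all positive, against 4.94% of all genes in that direction, and 0 by edgeR and DESeq2). Psmd3 led with 0.72 ± 0.24 (adjusted p = 0.464), and the 7 catalytic and activator genes lay between -0.61 for Psme1 and 0.06 for Psme2.

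The spread of the proteasome genes within the tumor groups was described by the residual SD. The residual SD on the log2 scale had a median of 0.185 over the 43 genes with a mean above 100 normalized counts and of 0.253 over all 9179 genes above that level. Psmb6 and Psmb4 were the steadiest, with 0.107 and 0.108, followed by the ATPase Psmc3 with 0.126. Psme1 was the most variable, with 0.456, then the chaperone Psmd9 (0.343), Psmd13 (0.332), Psmd4 (0.309) and Psmb5 (0.297). Level was not matched beyond the floor of 100 normalized counts. The medians therefore do not show whether these genes are steadier than others of their level. The comparison is a description, with no test.

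The genes around the proteasome were counted from fixed lists. Of 16 tested partners, among them ubiquitin shuttles, deubiquitinases and the core maturation protein Pomp, 7 were higher and 3 lower in MC38 cells than in skin, and 1 higher and 5 lower in wild-type tumors than in MC38 cells. Over all genes 20.8% were higher and 41.2% lower in the former comparison, and 18.3% and 9.61% in the latter. Of 6 ubiquitin and activating enzyme genes, 2 were higher and 1 lower in MC38 cells than in skin. Of 7 known regulators of proteasome genes, 0 were higher and 3 lower there. None of the genes on these 3 lists was called between hosts over both days.

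Some of the counts can hold reads of other genes. Besides Psme2 and Psme2b, 390 of the last 500 bases of Psma3 align without a difference to the processed pseudogene Gm13835, which held 7.89% of their joint counts. Of the 45 genes, 11 have a transcript elsewhere with at least 95% identity over at least 100 of the last 500 bases, leaving Psmb11 aside, and 2 of the 15 such copies in the table held more than 5% of the joint counts. On the same strand, exons of Mir686 cover 12.1% of those of Psmb5, Gm26938 9.68% of Psmg3 and Gm21972 4.14% of Psmd1. On the opposite strand the largest overlaps were 25.5% of Psmd9 (Gm26745), 11.8% of Psmb7 (Nek6) and 10.1% of Psmd13 (Sirt3). Of the inducible subunits in the ratios, exons of Tap1 cover 5.79% of those of Psmb9 and Gm20496 14.7% of those of Psmb8, also on the opposite strand. The strand setting of the counting is not given in the sources used here, so reads of such partners cannot be told apart.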

How the data were processed

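RNA of 16 libraries was read by 3′ end sequencing (QuantSeq, Ion Proton). Reads were trimmed (Cutadapt, Trimmomatic), aligned to mm10 with STAR and then Bowtie2, keeping the primary alignment of reads with several matches, and counted per gene with HTSeq after removal of ribosomal reads. Versions, annotation and strand setting are not given in the sources used here. The authors deposited counts divided by DESeq2 size factors, a signal in normalized counts. All values were whole multiples of 1 read (100%, tolerance 0.01), which gave back the reads. The 6 further libraries of the series, whose columns matched no label, were not used.

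Members were chosen by symbol, and the members and lists were chosen with earlier results of these data known. The libraries compared had to average 5 or more normalized counts for a gene to be tested, by limma 3.58.1 (trend) on log2(normalized count + 1), which understates the change of low genes, with Benjamini-Hochberg adjustment over all genes and a threshold of 0.05. The fold changes are on that scale. Comparisons of tumors with each other used the 12 tumors in 1 fit. A median over the members stands beside that over all genes. Full statistics were given for up to 5 members a direction past the threshold and for Psmb5, Psmb6, Psmb7 and the activators. Where none passed, the members named were chosen after their values were seen. The 3 catalytic ratios were compared by exact permutation tests. Alternatives were a pseudocount of 5, no filter, equal totals, equal upper quartiles, edgeR 4.0.16 and DESeq2 1.42.0 on the recovered reads, all 16 libraries in 1 fit, the replicate number as a block and leaving out each library. Psme2 summed with Psme2b was added after seeing the data. The scripts were tested on simulated data. Promoters were matched by symbol to RefSeq (GRCm38.p6), and gene positions and copies come from GENCODE M21 with blastn 2.17.0. Nothing in the labels ties tumors of the same number to each other.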

Additional observations from a re-analysis of the deposited data

Results flagged for a closer look

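In groups of 6 tumors a library was marked when its gap to the nearest other exceeded the share of the range that Dixon's test allows at the 95% level. Of 92 groups scanned 5 were marked, and chance marks about 1 in 20. In wild-type tumors the second library of day 23 stood above the others for Psma2, with 7105 normalized counts, and for Psma4, with 3112. Among the tumors labelled RAG1-/-, the second library of day 13 stood apart for Psmc1 with 2335 normalized counts, and the second of day 23 for Psmd9 with 834. The third tumor labelled RAG1-/- of day 23 had a log2 ratio of Psmb9 over Psmb6 of -2.04, the highest of its host and still below every wild-type tumor.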

How the results depend on the processing

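The direction of Psme1 and Psme2 against MC38 cells held under every alternative run. Against skin the counts moved with the scaling: in MC38 cells 34 genes were higher with equal totals and 36 with equal upper quartiles, and in wild-type tumors 28 and 31 were higher and 0 and 0 lower (0 by edgeR). Leaving out 1 library gave 7 to 13 higher in MC38 cells and 0 to 3 lower in wild-type tumors against skin. Against MC38 cells 6 were lower in wild-type tumors with no filter and 21 with equal upper quartiles, and 1 to 14 without 1 library. In the tumors labelled RAG1-/- 4 were lower with no filter and, without 1 library, 1 to 8 were lower and 1 to 2 higher. From day 13 to day 23 in these tumors DESeq2 called 2 lower. The cause of these shifts was not tested, beyond fewer samples where a library was left out.

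Small differences changed sign. Against skin, Psmb5 in MC38 cells was 0.40 and 0.47 after the 2 rescalings, 0.093 by edgeR and 0.052 by DESeq2, and -0.28 to 0.25 without 1 library. In wild-type tumors against skin, equal totals, equal upper quartiles and edgeR gave 0.36, 0.42 and 0.11 for Psmb5 and 0.34, 0.40 and 0.10 for Psme4, and the rescalings gave 0.031 and 0.093 for Psme2. Without 1 library these were -0.31 to 0.23 for Psmb5 and -0.15 to 0.035 for Psme4. Against MC38 cells, Psmb7 was -0.023 in wild-type tumors with equal upper quartiles. Without 1 library, Psmb7, Psme3 and Psmb5 were -0.11 to 0.36, -0.12 to 0.078 and -0.12 to 0.070 in wild-type tumors, and Psmb7 and Psme3 -0.019 to 0.45 and -0.14 to 0.056 in those labelled RAG1-/-. Between hosts over both days Psme3 was -0.0033 with equal upper quartiles and -0.045 to 0.076 without 1 library. At day 23 Psmb6 was 0.013 with equal totals, and -0.12 to 0.050 without 1 library, with Psmb7 at -0.14 to 0.044. From day 23 to day 46 Psmb5 was 0.016 with equal totals, and without 1 library Psmb5, Psmb6, Psme1 and Psme4 were -0.21 to 0.17, -0.17 to 0.0069, -0.75 to 0.041 and -0.21 to 0.021. From day 13 to day 23 Psmb7 was -0.082 with equal totals, and without 1 library Psmb7, Psmb6 and Psme3 were -0.047 to 0.14, -0.037 to 0.016 and -0.13 to 0.11. For the difference of the time effects Psmb6 was 0.070 with equal totals, and without 1 library Psme2, Psme4 and Psmb6 were -0.14 to 0.27, -0.066 to 0.16 and -0.15 to 0.022. The ratio of Psmb9 over Psmb6 at day 23 alone differed by 1.62, in a design too small to pass the threshold, and that of Psmb10 over Psmb7 by -0.0094 to 0.31 without 1 library.

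The replicate numbers did not clearly pair the tumors: of 18 same-number pairs 4 had a correlation over 0.1 (range -0.24 to 0.25). Of 36 other-number pairs 7 did (range -0.21 to 0.20), and 6 of the 12 tumors correlated best with their own number. With the replicate block, wild-type tumors had 2 higher and 8 lower genes than MC38 cells, and Psme3 there was 0.015. For the ratios the block was a sign-flip test of wild-type tumors paired by number with tumors labelled RAG1-/-. It paired wild-type day 23 with day 13, and wild-type day 46 with day 23. Psmb8 over Psmb5, at 0.76, passed the threshold there (sign-flip test, adjusted p = 0.0469). Nothing in the labels ties these tumors, and their days differ. Depth limits Psmb11, whose values lay below the level of 3 reads, and Psma8, which had 0 to 8 reads in all but 2 libraries.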
